A study of Mus musculus with 3 samples.

Results

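Plasmacytoid dendritic cells were studied in the brains of mice carrying mammary carcinoma metastases, and 50 such cells were found among the 6404 cells that passed 3 quality filters, out of 12908 deposited (0.781% of the filtered cells, exact binomial 95% interval 0.58 to 1.03%). The cells were chosen by their transcripts, counted as unique molecular identifiers (UMIs), which mark single captured RNA molecules. A member held at least 500 genes, at most 15% mitochondrial UMIs and at most 40000 gene UMIs. It also held a UMI of Siglech, UMIs of at least 2 of the 5 genes Ccr9, Klk1, Cox6a2, Ly6d and Pacsin1, and no UMI of the microglial genes P2ry12, Tmem119 and Fcrls. The mice were female C57Bl/6 animals of 2 to 3 months, and every brain held metastases of the carcinoma line E0771 after injection into the carotid artery. Some mice received antibodies against the checkpoint proteins VISTA and PD-L1 (Dual TX in the labels) every other day from day 3 after the injection, and the others did not. Brain cells were enriched for immune cells on a Percoll gradient, stained with 35 oligonucleotide-tagged antibodies, marked with 8 hashtags, 1 per brain sample, and loaded as 1 pool. The sources used here do not tie a hashtag to a treatment, so treated and untreated brains were pooled and no treatment comparison was made. The rule for the members also pools all hashtags, so cell groups are compared as pools, with no test across brains, and all intervals below are 95% intervals that cover counting error only.

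Plasmacytoid dendritic cells are immune cells that sense viral and self nucleic acids in their endosomes through Tlr7 and Tlr9 and can release large amounts of type I interferon. Their identity depends on the E protein transcription factor Tcf4 (E2-2), which opposes the inhibitor Id2, the factor that conventional dendritic cells rely on. They have a secretory cell's shape, carry the surface receptors Siglec-H, B220 and Bst2 in mice, and share several genes with lymphoid cells. The mouse brain holds few of them, and Siglech is also expressed by microglia, the brain's resident macrophages, which is why the gate excluded microglial transcripts.

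The members held 520408 UMIs in all, with 1809 to 36522 per cell and a median of 8224.5 UMIs and 2557.5 genes. The comparison cells were the 6354 other cells that passed the filters (median 8219 UMIs), and within them 134 conventional dendritic cells (median 14038.5 UMIs) and 586 microglia (median 8185.5 UMIs). Conventional dendritic cells were gated on Flt3 and at least 2 of Xcr1, Clec9a, Cd209a, Zbtb46, Naaa and Wdfy4. To leave out mature dendritic cells and microglia, they also held fewer than 2 of Ccr7, Fscn1, Cacnb3 and Il4i1 and no UMI of P2ry12, Tmem119 or Fcrls. Microglia were gated on Siglech and at least 2 of P2ry12, Tmem119 and Fcrls. The 3 deposited libraries are the transcripts, antibody tags and hashtags of the same capture, and all 12908 barcodes carried antibody tags, and 12907 carried hashtag counts. By hashtag calls 45 members were singlets and 5 were doublets, and the doublets stayed in except where stated.

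Of the 45 singlet members, hashtag 5 held 24, hashtag 8 held 7, hashtags 6 and 7 held 5 each, hashtag 3 held 2, hashtags 1 and 4 held 1 each, and hashtag 2 held 0. A rule on the margin between a cell's hashtags, run as an alternative, gave 24 members to hashtag 5 and 2 to hashtag 2. These counts stand beside 1549 filtered singlets of hashtag 5, 1208 of hashtag 8, 760 of hashtag 6, 759 of hashtag 7, 446 of hashtag 3, 367 of hashtag 2, 144 of hashtag 4 and 48 of hashtag 1. Before the limit of 40000 UMIs, singlets of hashtags 5, 7 and 8 had medians of 11244.5, 11477 and 12058 UMIs, and those of hashtags 1, 2, 3, 4 and 6 had medians of 47059.5, 58124, 62473, 67341 and 63652 UMIs. The limit therefore removed different shares of the hashtags' cells, and 7 further cells met every other part of the gate above it.

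Of the cells with a Siglech UMI and no microglial UMI, 136 in all, 71 held none of the 5 further gate genes, 15 held 1, 6 held 2, 5 held 3, 18 held 4 and 21 held all 5. The 6 cells just inside the threshold held 1 to 5 Siglech UMIs (median 2.0), 13 to 52 Bst2 UMIs (median 23.5) and 3 to 15 Tcf4 UMIs (median 8.0). The 15 cells just outside it held 1 to 4 Siglech UMIs (median 2.0), 0 to 59 Bst2 UMIs (median 13.0) and 0 to 14 Tcf4 UMIs (median 2.0). Irf8 differed less between them, with 1 to 11 UMIs (median 4.5) in the 6 cells and 0 to 21 (median 3.0) in the 15. Its level was 550 and 490 counts per 1000000 UMIs in these 2 groups, against 2222 in the 44 members with 3 or more gate genes. Another 34 cells held Siglech and at least 2 of the gate genes but also a microglial UMI, and 0 cells held at least 3 of the gate genes without Siglech.

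The gate genes chose the members, so their values describe the cells and support nothing. Siglech, which encodes an endocytic sialic acid-binding receptor (chr7:55768154-55779448, build GRCm38.p6), was present in all 50 members with 1 to 28 UMIs per cell (median 11). Ccr9, a chemokine receptor, was present in 48 members with up to 56 UMIs (median 8), and Cox6a2, a muscle-type subunit of cytochrome c oxidase, in 43 with up to 33 UMIs (median 6). Ly6d, a membrane protein of lymphoid progenitors, was present in 42 members with up to 89 UMIs (median 20.5), and Klk1, a secreted kallikrein protease, in 27 with up to 73 UMIs (median 1). Pacsin1, a membrane-bending adaptor protein, was the least abundant, with up to 6 UMIs per cell in 44 members. In T cells (1143 cells, median 5772 UMIs), 0.962% of cells held a Siglech UMI, 1.14% Ccr9, 0.7% Cox6a2, 0.612% Ly6d and 0.0875% Klk1. Pacsin1 was in 11.4% of the T cells, the highest share among the 6 gate genes. These T cells were gated on at least 2 of Cd3e, Cd3d and Cd3g and no microglial UMI. Members were left out of them, so their low shares of the gate genes were in part set by the gates.

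**Figure D1:**
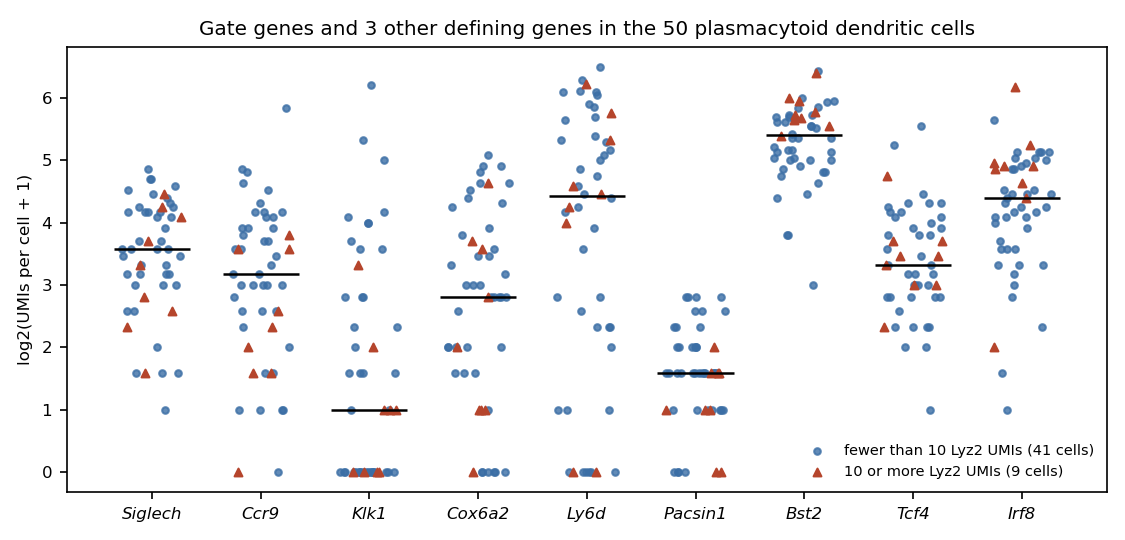
UMIs per cell, as log2 of the count plus 1, of the 6 gate genes that members had to carry and of Bst2, Tcf4 and Irf8, which the gate did not use; each point is 1 of the 50 cells and the black bar is the median. Triangles mark the 9 cells with 10 or more Lyz2 UMIs, and Bst2, Tcf4 and Irf8 were above 0 in all 50 cells.

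The label was checked against defining genes that the gate did not use. Bst2, the tethering receptor known as PDCA-1, was present in all 50 members with 7 to 85 UMIs per cell (median 41.5). Its level was 4030 CPM (counts of the gene per 1000000 UMIs), against 972 CPM in other cells, a ratio of 4.15 (interval 3.97 to 4.33). Tcf4 was also present in every member, with 1 to 46 UMIs (median 9) and 1101 CPM against 148 CPM, a ratio of 7.46 (6.85 to 8.12). Irf8, a transcription factor of dendritic cell development, was in every member with 1 to 71 UMIs (median 20). Its ratio was 6.58 (6.18 to 7.0) over other cells and 2.38 (2.21 to 2.57) over conventional dendritic cells. Members carried these 3 genes, and the level of each in the pool lay above that of every comparison group. These genes and the gene lists below were chosen with earlier results of these data known. Their values therefore describe the members and are no independent test of the label. After each cell was thinned to 2000 UMIs, which left out 1 shallower member, 98.0% of members held a Bst2 UMI, 95.9% Irf8 and 85.7% Tcf4, against 65.5%, 18.2% and 3.72% of T cells.

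Genes were compared where the mean of both groups' CPM was at least 20, and a gene was called where it differed at least 2-fold. Over other cells, 484 of 5840 genes were higher (8.29%) and 623 were lower (10.7%). Over conventional dendritic cells, 668 of 5418 genes were higher (12.3%) and 364 lower (6.72%). Over microglia, 625 of 5850 genes were higher (10.7%) and 780 lower (13.3%). Genes used by either gate were left out of these counts. The list counts below are to be read beside these shares.

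Of 34 plasmacytoid identity genes, 31 could be compared with other cells, and 28 were higher and 0 lower, with a median log2 ratio of 3.00 beside -0.0027 over all genes compared. Over conventional dendritic cells 29 of 31 were higher (median 3.29) and over microglia 26 of 31 (median 3.95). Cd300c, an immunoglobulin-like receptor, stood at 246 CPM against 2.13 CPM in other cells, a ratio of 115 (90.1 to 147). Smim5, a small membrane protein gene, stood at 342 against 3.82 CPM, a ratio of 89.5 (73.5 to 109). The most abundant identity gene was Plac8, at 4383 CPM with 9 to 166 UMIs per cell, and its ratio was 2.92 (2.80 to 3.04). Clec12a, Grn and Tsc22d1 stayed within 2-fold, at ratios of 1.9, 1.57 and 1.25.

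The plasmacytoid transcription factors were higher than in other cells for 9 of 16 genes compared, with 0 lower and a median log2 ratio of 1.24. Spib, an Ets factor of the plasmacytoid and B lineages, had a ratio of 46.3 (35.3 to 60.2) and was found in 36 members. Bcl11a, a zinc finger factor, had a ratio of 44.7 (38.1 to 52.4) over other cells and 7.18 (5.74 to 9.02) over conventional dendritic cells. Runx2, which is known to control plasmacytoid cell exit from the marrow, had a ratio of 15.8 (13.5 to 18.4), and Tcf12, an E protein like Tcf4, one of 4.09 (3.33 to 4.98). Irf7, the factor that drives interferon-alpha genes, stood at 582 against 500 CPM, a ratio of 1.17 (1.04 to 1.30) within the 2-fold limit. Ikzf3 had 0 UMIs in the members.

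The factors and genes of conventional dendritic cells were lower in part. Id2 stood at 65.3 CPM in members and 648 CPM in conventional dendritic cells, 9.92 times lower, and was found in 15 members with at most 7 UMIs. Batf3 was represented by 1 UMI (ratio over conventional dendritic cells 0.0154, interval 0.000389 to 0.0865). Of 12 factors compared with conventional dendritic cells, 5 were lower and 0 higher, with a median log2 ratio of -0.64 (-1.65 without the 9 cells described next). Over other cells 2 of 11 factors were higher, Mycl (log2 ratio 4.12) and Irf4 (2.08), and 3 lower. Of 9 genes of conventional dendritic cells compared with those cells, 5 were lower and 2 higher (median log2 ratio -1.30), and over other cells 4 of 12 were higher and 4 lower (median 0.03). Cst3, the protease inhibitor cystatin C, was at 1353 CPM against 12119 CPM. Clec10a, a lectin, ran the other way at 256 against 50.3 CPM, a ratio of 5.08 (3.92 to 6.60).

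A set of 9 among the 50 members stood apart by their myeloid transcripts. They held 18 to 158 UMIs of Lyz2, the lysozyme of myeloid cells, whereas each of the other 41 members held at most 1. The tags of CD11b, the myeloid integrin, numbered 160 to 848 in the 9 cells and 0 to 73 in the 41. CD11b tags played no part in the gate or in the choice of the 9. The ranges of F4-80 (3 to 42 against 0 to 11), Ly6C, Siglec-H, I-A/I-E and B220 tags overlapped between the groups. How many of the 35 tags separate the groups was not counted. The 9 cells were deeper, with a median of 16043 UMIs against 7551, and 3 of the 9 and 2 of the 41 were hashtag doublets. They kept the plasmacytoid genes at lower levels per UMI: Siglech stood at 540 CPM against 1471, Ccr9 at 296 against 1339 and Tcf4 at 563 against 1367. The macrophage complement gene C1qa stood at 2066 CPM against 8.62, with up to 189 UMIs in 1 of the 9 cells and a median of 0, and 3 of the 7 members that held it were among the 41. Whether these barcodes each held 1 cell was not tested, and many values below are also given without them. Without them, 658 of 5829 genes were at least 2-fold higher than in other cells (11.3%) and 925 lower (15.9%). Against conventional dendritic cells 851 of 5419 genes were higher (15.7%) and 651 lower, and against microglia 772 of 5844 were higher (13.2%) and 1030 lower (17.6%). The choice of 10 Lyz2 UMIs as the limit was made after the values had been seen.

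**Figure D2:**
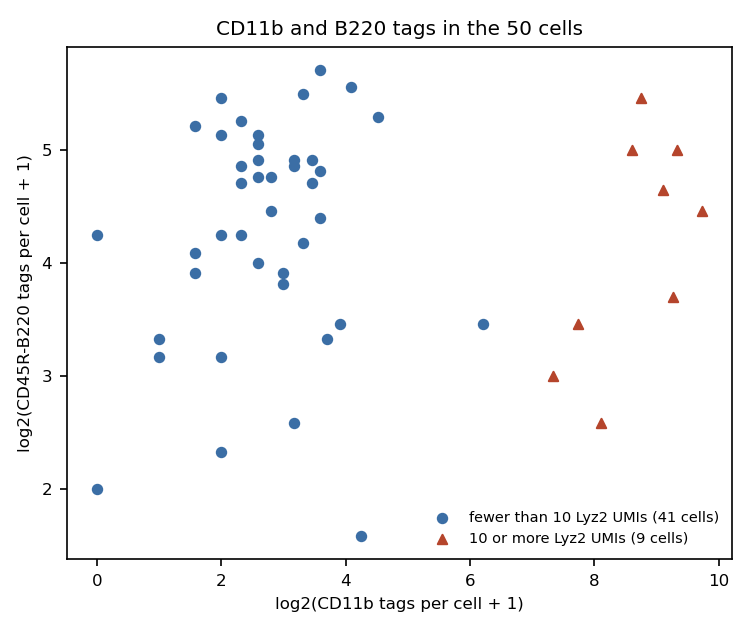
CD11b tags (x axis) and CD45R-B220 tags (y axis) per cell, both as log2 of the count plus 1, in the 50 plasmacytoid dendritic cells; triangles are the 9 cells with 10 or more Lyz2 UMIs. The triangles lie at 160 to 848 CD11b tags and the other 41 cells at 0 to 73, while the B220 ranges of both groups overlap.

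Other cell types were checked with marker lists. Macrophage markers summed to 2665 CPM in members (7474 in other cells), with all 8 genes present, 28 cells holding a UMI and 8 cells holding 10 or more. The median log2 ratio of these markers over other cells was -1.19, and -6.26 without the 9 cells. Microglial markers summed to 250 CPM, against 10682 CPM in microglia, with Sall1 and Slc2a5 at 0. T cell markers summed to 352 CPM, against 5103 CPM in T cells, and 6 cells held 10 or more such UMIs, a list that includes Cd8b1. B cell markers summed to 42.3 CPM, with Ms4a1, Pax5, Fcmr and Cd22 among the genes at 0, and Cd79b, a B cell receptor subunit, had 18 UMIs in 16 members, a ratio of 3.04 (1.79 to 4.83) over other cells. NK cell markers summed to 23.1 CPM with Ncr1 and Klrb1c at 0, neutrophil markers to 28.8 CPM with Retnlg, Mmp9 and Cxcr2 at 0, and erythroid markers to 0. Epithelial and carcinoma markers summed to 57.6 CPM against 56.8 in other cells, with Krt18, Krt19, Krt7 and Cldn4 at 0. Their UMIs came from Epcam, an epithelial adhesion protein, with 23 in 14 members (44.2 CPM against 4.01 in other cells), and Krt8, with 7 in 5 members. Monocyte markers summed to 6272 CPM and were present in every member, because that list holds Plac8. Endothelial markers summed to 338 CPM, with 5 of 6 genes present, 35 cells holding a UMI and Slco1a4 at 0. Their sum was 1249 CPM in other cells, 147 in conventional dendritic cells, 165 in microglia and 211 in T cells. Neural and glial markers summed to 76.9 CPM (2236 in other cells), with Gfap and Snap25 at 0. Conventional dendritic cell markers summed to 165 CPM, against 780 in those cells and 193 in other cells, with 5 of 6 genes present and Xcr1 at 0. Mature dendritic cell markers summed to 169 CPM, against 294 in other cells, with 4 of 6 genes present and Ccr7 and Ccl22 at 0. They summed to 120 CPM in conventional dendritic cells, whose gate limited such genes. The part of these other transcripts in the results was not tested beyond the values without the 9 cells.

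Genes shared with lymphoid cells were high in the members, with 9 of 13 compared genes higher than in other cells, 1 lower and a median log2 ratio of 1.87. Dntt, the terminal deoxynucleotidyl transferase of antigen receptor rearrangement, was found in 33 members with at most 10 UMIs. It stood at 171 CPM against 0.687 in other cells, a ratio of 249 (173 to 364), and conventional dendritic cells and microglia held 0 UMIs, so members were at least 127-fold and 397-fold higher by the limit of 3 counts per pool. The recombinase genes Rag1 and Rag2 had 0 UMIs in members. Immunoglobulin constant region transcripts were also present. Ighm, the mu heavy chain, was in 48 members with at most 13 UMIs and a ratio of 8.37 (7.39 to 9.45), and Iglc3, a lambda light chain, was in 33 with a ratio of 97.3 (83.8 to 113). Iglc2 and Iglc3 are near-identical, so how their reads were divided is uncertain.

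Coreceptor genes of T cells varied strongly among members, and the antibody tags varied with them. Cd4 transcripts were found in 23 members (0 to 8 UMIs) and CD4 tags ranged from 0 to 433 per cell with a median of 36.5. Cd8a transcripts were found in 20 members (0 to 11 UMIs) and CD8a tags ranged from 0 to 221 with a median of 20. Across the 50 cells the Cd4 CPM and the CD4 share of tags correlated with Pearson's r 0.762 (Spearman's rho 0.639), and Cd8a with CD8a at 0.812 (0.674). Pearson's r was 0.759 and 0.815 in the 41 cells with fewer than 10 Lyz2 UMIs. Correlations were computed for 11 pairs of gene and tag, and they describe cells of 1 capture that share staining and depth. Pairs with weak correlations included Ptprc with CD45 (rho 0.156) and Itga4 with CD49d (0.135), and the rho of Itgam with CD11b (0.502) and of Cd274 with PD-L1 (0.257) became -0.172 and -0.161 in the 41 cells.

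Antibody tags played no part in choosing the members, and 6 of the 35 tags had a median share at least 2-fold above that of other cells. The barcode oligonucleotides of the tags on which the identity check turns are shown 5′ to 3′.
Siglec-H: ccgcacctacattag
CD45R-B220: cctacacctcataat
CD11c: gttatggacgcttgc
CD11b: tgaaggctcatttgt
CD45R-B220, the CD45 isoform of B and plasmacytoid cells, made up a median of 0.835% of a member's tags (quartiles 0.49 and 1.04), with 2 to 51 tags per cell. Its median was 0.118% in other cells and 0.0661% in conventional dendritic cells, 7.08 and 12.6 times lower, and 48 of 50 members lay above the other cells' median. CD11c, an integrin of dendritic cells, was at 3.20% against 0.349% in other cells and 3.07% in conventional dendritic cells, and all 50 members lay above the other cells' median. CD4, CD8a and CD38 had ratios of 6.89, 6.86 and 3.40 over other cells.

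The Siglec-H tag was weak, with 1 to 27 tags per cell and a median of 9. Its median share was 0.29% in members, 0.146% in other cells, 0.0851% in conventional dendritic cells and 0.411% in microglia, which had fewer tags per cell in all (median 709 against 2712). The share of Siglec-H tags and the Siglech CPM had a Spearman's rho of 0.630 and a Pearson's r of 0.428 over the 50 cells. In the 41 members left without the 9 cells, the rho was 0.557 and the r 0.366. The gate required a Siglech UMI, so cells without that transcript could not enter this correlation. It describes the chosen members and is no independent check of the gate. Antibodies to MHC class II (I-A/I-E) took 3.62% of tags in members, against 17.4% in conventional dendritic cells and 1.76% in other cells, and 2.53% without the 9 cells. The I-A/I-E share and the H2-Ab1 CPM had a rho of 0.770 and an r of 0.515.

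CD11b was the tag with the lowest median ratio above 0, at 0.294% of tags against 4.40% in other cells and 19.3% in microglia. CD86, PD-L1, CX3CR1 and F4-80 also had median shares less than 0.5 of those in other cells, at ratios of 0.346, 0.455, 0.467 and 0.482. CD64 and CD83 had a median share of 0 in members. The remaining tags with a ratio, 18 in all, stayed within 2-fold, among them CD45 (49.8% against 37.2%), CD44, CD172a-SIRPa, NK1.1, CD103, CD49d, PD-1, Ly6C (14.1% against 17.6%), CD24, CD3, TMEM119, CD25, XCR1, CCR2-CD192, Ly6G, CD117-c-kit and CD169-Siglec-1. CD90.1, CD335, CXCR4 and KLRG1 had a median of 0 in every group compared.

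**Figure D3:**
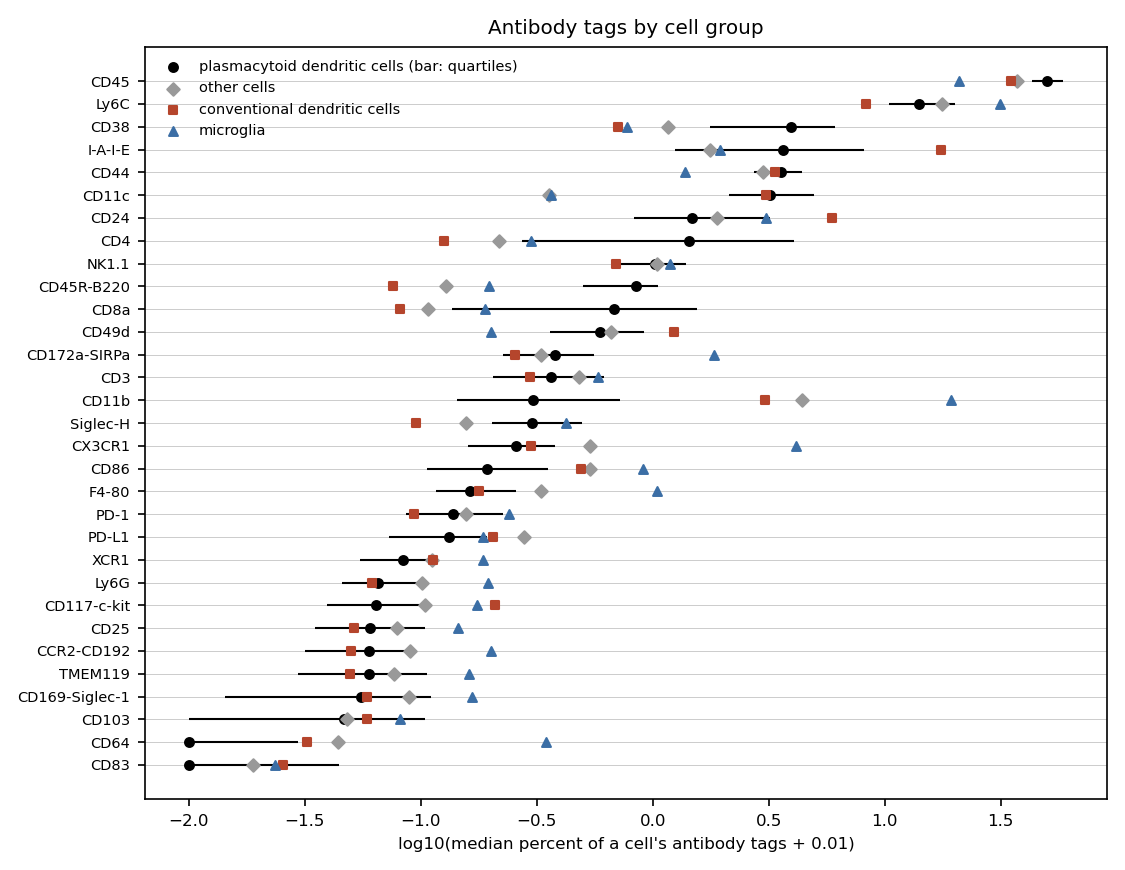
Median share of each antibody tag among a cell's tags, as log10 of the percent plus 0.01, in plasmacytoid dendritic cells (black, with quartiles as a bar), other cells, conventional dendritic cells and microglia. B220, CD4, CD8a and CD38 lie to the right of all 3 comparison groups in the plasmacytoid cells, and CD11b lies to the left of them.

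Of 27 genes of endosomal nucleic acid sensing, 20 were compared with other cells, and 5 were higher and 1 lower, with a median log2 ratio of 0.38. Without the 9 cells 4 were higher and 5 lower, with a median of 0.58. Over conventional dendritic cells 4 of 21 were higher and 2 lower (median 0.25), where 12.3% of all genes were higher and 6.72% lower. Over microglia 2 of 21 were higher and 4 lower (median -0.06), where 10.7% of all genes were higher and 13.3% lower. Tlr7, the endosomal receptor for single-stranded RNA, was found in 28 members with at most 7 UMIs, at 99.9 CPM. Its ratio was 3.08 (2.29 to 4.05) over other cells, 8.56 (5.25 to 14.3) over conventional dendritic cells and 1.07 (0.79 to 1.42) over microglia. Tlr9, the receptor for CpG DNA, was represented by 2 UMIs in 2 cells, at a ratio of 1.61 with an interval of 0.193 to 5.91, so no difference was detectable at this depth. Unc93b1, which delivers these receptors to the endosome, stood at 525 against 251 CPM, a ratio of 2.09 (1.84 to 2.35) and 1.98 without the 9 cells. Ptprs, a receptor phosphatase that restrains plasmacytoid cells, had a ratio of 6.87 (5.50 to 8.50), and Pld4, an endosomal nuclease, one of 3.40 (3.04 to 3.78). Ctsl, the protease cathepsin L, was at 1065 CPM, 11.1 times the level in conventional dendritic cells and 0.886 times that in microglia.

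Interferon transcripts were not detected in the members. All 19 type I and type III interferon genes in the matrix had 0 UMIs among 520408, which allows up to 5.76 CPM for each gene by the limit of 3 counts. In the other 6354 cells Ifnb1 had 332 UMIs in 134 cells and the other 18 genes had 21 UMIs, so a level like that of other cells could not have been told from 0. Ifng also had 0 UMIs in members. The interferon receptor chains were higher than in other cells, Ifnar1 at a ratio of 3.28 (2.75 to 3.88) and Ifnar2 at 2.32, with 2 of 12 receptor and signalling genes higher and 1 lower, namely Socs3 at a ratio of 0.479, and 3 were lower without the 9 cells.

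Of 42 interferon-stimulated genes compared with other cells, 3 were higher and 10 lower, where 8.29% of all genes were higher and 10.7% lower. The median log2 ratio was -0.26. Without the 9 cells the count was 3 higher and 17 lower, with a median of -0.56, and with cells of at most 20000 UMIs the median was -1.003. Bst2 was 1 of the 3 higher genes, and Iigp1, an interferon-inducible GTPase, was another at a ratio of 3.74 (3.20 to 4.35), with up to 70 UMIs in 1 cell and UMIs in 17 cells. Isg15, a ubiquitin-like modifier, stood at 530 against 1205 CPM and was found in 37 members. Ifit3 and Rsad2, antiviral effectors, had ratios of 0.273 (0.197 to 0.369) and 0.336 (0.259 to 0.428). Against microglia the list ran differently, with 6 genes higher and 2 lower and a median log2 ratio of 0.22, which was -0.06 without the 9 cells. Of 9 cytosolic sensors compared with other cells, 1 was higher (Tmem173, encoding STING, ratio 2.08) and 1 lower (Ddx58, encoding RIG-I, ratio 0.392). These counts stand beside 8.29% of all genes higher and 10.7% lower. The median log2 ratio was -0.33, or -0.80 with 2 lower without the 9 cells.

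Il12a, the p35 subunit of interleukin-12, was the cytokine with the largest ratio. It was found in 13 members with at most 4 UMIs, at 46.1 CPM against 0.895 in other cells, a ratio of 51.5 (30.7 to 84.0), and the partner subunit Il12b had 0 UMIs. Of 13 cytokines compared with other cells, 1 was higher and 7 were lower, with a median log2 ratio of -1.14 (-1.89 without the 9 cells). The UMIs of Il1b, an inflammatory cytokine, numbered 492 in 12 cells, of which 4 UMIs in 3 cells lay outside the 9 cells with 10 or more Lyz2 UMIs.

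The chemokine values rested on the same cells. Of 14 chemokines compared with other cells, 8 were lower and 0 higher, with a median log2 ratio of -1.22, and without the 9 cells 12 of 14 were lower with a median of -4.46. Cxcl2, a neutrophil attractant, had 387 UMIs in 17 members, and 11 UMIs remained in the 41 cells. Cxcl10, which attracts cells bearing Cxcr3, had 277 UMIs in 9 members, with up to 106 in 1 cell, and 108 UMIs in 3 cells remained. Cxcl9, of the same group, had 428 UMIs in 7 members, of which 288 were in 1 cell. Ccl4 differed from these: it was present in 43 members with at most 88 UMIs, at 1472 CPM against 1807 in other cells, and 34 of the 41 cells with fewer than 10 Lyz2 UMIs held it at 1405 CPM.

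Homing and adhesion receptors included 3 higher and 5 lower genes of 19 compared with other cells. Selplg, the P-selectin ligand, and S1pr4, a sphingosine phosphate receptor, were among the higher genes, at ratios of 2.23 and 2.64. Ccr7, the receptor of mature migrating dendritic cells, had 0 UMIs in members and was at 83.4 CPM in other cells, at least 14.5-fold lower. Cx3cr1, the fractalkine receptor of microglia, stood at 15.4 CPM against 270 in other cells. Cxcr3, found in 16 members, had a ratio of 1.88 (1.13 to 2.95), and Ccr2 had 75 UMIs in 15 members, 12 of them outside the 9 cells.

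Class II antigen presentation lay below conventional dendritic cells, with 11 of 14 genes lower, 1 higher and a median log2 ratio of -1.81. The invariant chain Cd74 stood at 4064 CPM against 14447, with 0 to 258 UMIs per cell and 47 members positive. H2-Ab1, a class II beta chain, stood at 999 against 7129 CPM, 7.13 times lower (661 CPM without the 9 cells), and H2-Aa, its alpha chain, at 1255 against 6741 CPM, 5.37 times lower. The 1 higher gene was Ctsl. Over other cells 2 genes of 12 were higher and 3 lower (median -0.39), and without the 9 cells 6 were lower (median -0.70). In the class I list 2 of 15 genes were higher than in other cells, the non-classical H2-Q7 (ratio 2.53) and H2-T23 (ratio 2.31), and 0 were lower. Over all genes 8.29% were higher and 10.7% lower.

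The study's treatment was directed at VISTA (gene Vsir) and PD-L1 (gene Cd274), and both were present at low levels in members. Vsir had 44 UMIs in 21 members, at 84.5 CPM against 119 in other cells and 398 in microglia, and its ratio over other cells was 0.711 (0.516 to 0.955), and 0.386 without the 9 cells. Cd274 had 35 UMIs in 14 members at a ratio of 0.686 (0.477 to 0.955), and 10 UMIs in 6 cells at a ratio of 0.293 remained without the 9 cells. Of 10 genes compared with other cells in a list of mainly costimulatory and checkpoint ligands, 1 was higher (Cd47, the do-not-eat-me signal, ratio 2.74) and 3 lower. Without the 9 cells 6 were lower. The costimulator Cd86 was among the lower genes, at 28.8 against 116 CPM, and 1 UMI of its 15 lay outside the 9 cells. Gzmb, the cytotoxic protease granzyme B, was another, with 2 UMIs (ratio 0.0146, interval 0.00176 to 0.0526). Gzmb is not a ligand, but the list held it, so it is 1 of the 10 genes compared and 1 of the 3 lower.

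Inhibitory receptors included 4 higher and 4 lower genes of 12 compared with other cells. Lag3, which binds class II on other cells, was in 32 members with at most 15 UMIs, at a ratio of 7.09 (5.77 to 8.62), and in 28.6% of members and 13.7% of T cells after thinning. Lair1, a collagen receptor, was in 49 members at a ratio of 5.09 (4.55 to 5.68). Signalling genes shared with the B cell receptor were higher than in other cells for 9 of 17 compared and lower for 0 (median 1.01), and without the 9 cells 8 were higher and 1 lower. Over conventional dendritic cells 8 of 17 were higher and 1 lower (median 0.75), and over microglia 4 of 17 were higher and 1 lower (median 0.04). Blnk, an adaptor, had a ratio of 8.31 (6.68 to 10.2) over other cells. Among growth factor receptors 4 of 19 were higher and 2 lower than in other cells, where 8.29% of all genes were higher and 10.7% lower. Tnfrsf13b (TACI), Csf2rb2 and Il7r had ratios of 7.97, 7.26 and 3.67, and Flt3, the receptor of dendritic cell growth, 7.93 (5.47 to 11.2). Without the 9 cells 7 of 20 growth factor receptors were lower.

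Of 29 secretory pathway genes, 5 were higher than in other cells and 0 lower, with a median log2 ratio of 0.46. Over conventional dendritic cells 2 of 29 were higher and 1 lower (median 0.47), where 12.3% of all genes were higher. Over microglia 3 of 29 were higher and 0 lower (median 0.38), where 10.7% of all genes were higher. Mzb1, a chaperone of antibody-secreting cells, had the largest ratio over other cells at 23 (18.2 to 28.8) and was in 27 members. Herpud1, Sec11c, Sec61b and Xbp1, the factor that drives endoplasmic reticulum expansion, had ratios of 2.84, 2.36, 2.30 and 2.17. The nuclear cytochrome c oxidase subunits other than Cox6a2 gave 0 of 11 genes called in either direction, with a median of 0.04.

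Proliferation, stress and survival genes were mostly at or below the levels of other cells. Of 11 cell cycle genes compared, 10 were lower and 0 higher (median -2.05), and without the 9 cells 9 of 12 were lower. Mki67, a marker of dividing cells, had 1 UMI in members (ratio 0.0416, interval 0.00105 to 0.232). At least 3 UMIs over a set of 11 cell cycle genes were held by 8 of the 50 members (16%, upper limit 29.1%). In other cells this share was 21.2%, so the members' share could not be told from theirs. It was 23.7% in microglia, 29.4% in T cells and 35.1% in conventional dendritic cells, which held more UMIs per cell. The 11 genes summed to 110 CPM in members, 475 in other cells, 679 in conventional dendritic cells, 696 in microglia and 845 in T cells. Immediate early and heat shock genes had 12 of 18 lower and 0 higher (median -1.23), with Fos at 934 against 1927 CPM, and without the 9 cells 14 were lower (median -1.84). Survival genes had 4 of 15 lower and 0 higher (median -0.41), or 6 lower and 1 higher without the 9 cells, and glycolysis and hypoxia genes 6 of 18 (median -0.85), which was 12 of 18 without the 9 cells. Of 15 transitional dendritic cell genes 10 were lower and 0 higher (median -1.13, and -1.83 without the 9 cells), among them Axl at a ratio of 0.423. Of the Siglec and Ly6 families, 2 of 6 genes compared were higher, Ly6a and Ly6c2, and 2 lower.

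**Figure D4:**
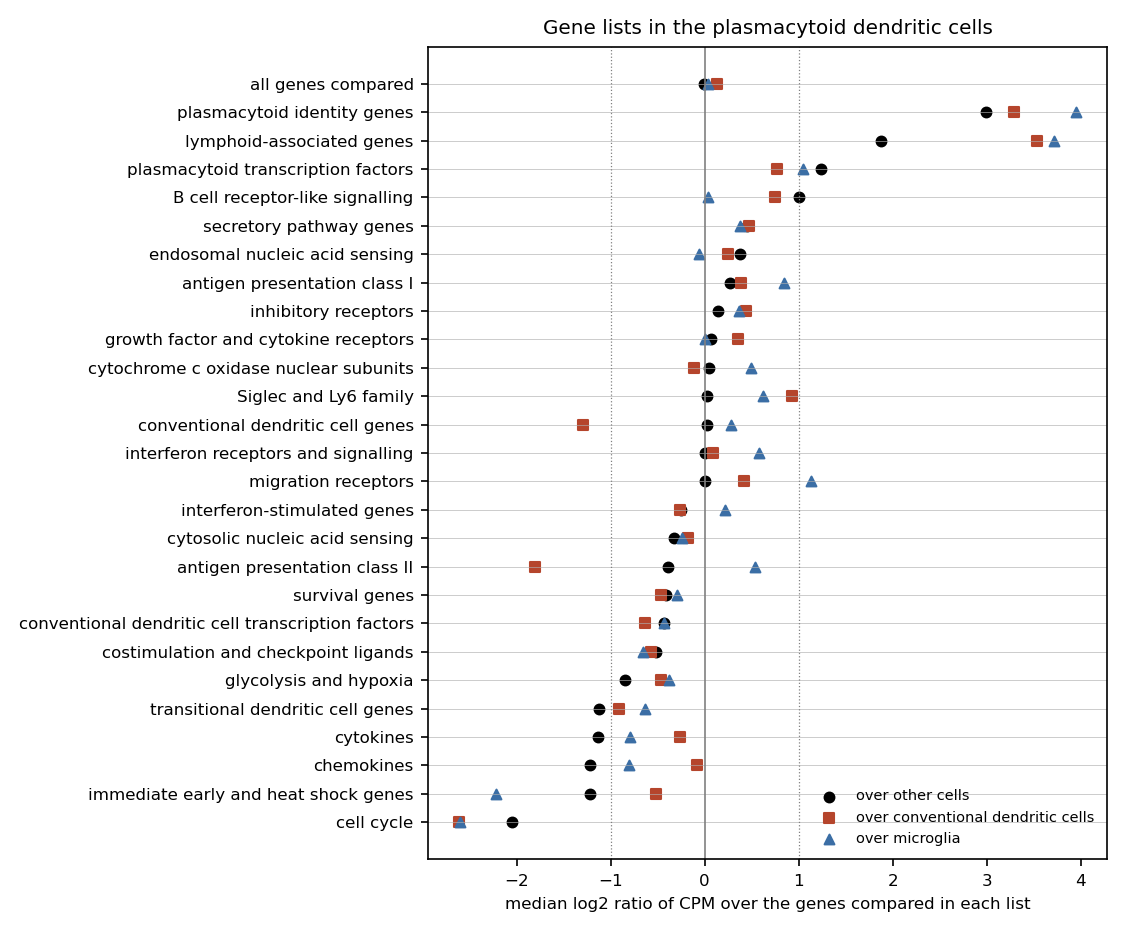
Median log2 ratio of CPM for each gene list by role with at least 5 genes compared (marker lists of other cell types are not drawn), in plasmacytoid dendritic cells over other cells (black), conventional dendritic cells (red squares) and microglia (blue triangles); dotted lines mark 2-fold. Among the lists drawn, identity and lymphoid-associated genes lie farthest to the right, at 3.00 and 1.87 over other cells, and cell cycle genes farthest to the left at -2.05.

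Outside the lists, the 15 genes with the largest ratios over other cells were Gm21762, Foxr1, Atp2a1, Klk1b27, Ubd, Pgam2, Fcrla, AC140186.1, Ccdc162, Fads2, Cd209d, Adam11, Pdzd4, Spns3 and Sh3bgr. The unannotated gene Gm21762 was in 39 members, at 304 against 1.43 CPM, a ratio of 212 (163 to 276). Foxr1, a forkhead factor, had 21 UMIs in 15 members, a ratio of 169 (84.0 to 346), and Fcrla, an intracellular Fc receptor-like protein of B cells, 139 UMIs in 37 members, a ratio of 84.8 (68.0 to 106). Atp2a1, a calcium pump, and Pgam2, a glycolytic mutase, had ratios of 151 and 112. Klk1b27 is a close relative of Klk1 and may share its reads. All 98 UMIs of Ubd came from 1 cell, and 55 of the 56 UMIs of Plvap, among the 5 highest over microglia and over conventional dendritic cells, also came from 1 cell. The other genes of those sets were Gm21762, Pgam2 and Ccdc162 over conventional dendritic cells and AC140186.1, Pgam2 and Gm21762 over microglia, each set completed by Ubd.

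The 10 genes with the smallest ratios over other cells outside the lists were Mgp, Itm2a, Myl9, Hspb1, Enpp2, Ighg2c, Tagln, Tnfrsf4, Jcad and Klf9. Each had 1 UMI in members except Tagln with 4, and their levels in other cells were 47.8 to 285 CPM. Mgp, a matrix protein, had a ratio of 0.00892 (0.000226 to 0.0497). Over conventional dendritic cells the smallest were Tnfrsf4, Klrb1b, Myl9, Tbc1d9 and Tmem238, and over microglia Ltc4s, Crybb1, Slco2b1, Ptgs1 and Camk2n1, the last 5 at 1 or 2 UMIs in members and 121 to 325 CPM in microglia.

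Among members thinned to 2000 UMIs, 579 genes had a mean of at least 0.5 UMIs, and the median of their variance over mean was 1.22. The 10 most variable genes were Ifitm1, Cxcl9, Gm42418, Fabp5, Lyz2, Malat1, Ifitm3, Ly6d, C1qa and Cxcl10. Ifitm1, an interferon-inducible membrane protein, had a variance over mean of 19.9 and 20.2 without the 9 cells, with 203 UMIs in 11 members and up to 104 in 1 cell. Fabp5, Lyz2 and C1qa, a lipid carrier and 2 macrophage-lineage genes, went from 13.6, 12.9 and 8.39 to 0.974, 0.923 and 0.974 without the 9 cells. Ly6d kept its value, 8.65 and 8.76, with 0 to 28 thinned UMIs per cell. Without the 9 cells the 10 most variable genes also included Actb, Ifitm2, Ms4a6c, Actg1 and Cd74.

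The promoters of Siglech, Ccr9 and Klk1 are shown because they hold E-box letters, the kind of site that Tcf4 binds. The window of Pacsin1 held none of the 3 motifs searched, but its start site lies 29648 bases past the gene's first base. The table had no entry matched to Cox6a2 and Ly6d. Each window runs from 250 bases before to 50 after a start site of the table (RefSeq, GRCm38.p6, both strands searched), and capitals mark the E-box letters CAGGTG or their reverse complement.
Siglech, chr7:55767934-55768233, plus strand: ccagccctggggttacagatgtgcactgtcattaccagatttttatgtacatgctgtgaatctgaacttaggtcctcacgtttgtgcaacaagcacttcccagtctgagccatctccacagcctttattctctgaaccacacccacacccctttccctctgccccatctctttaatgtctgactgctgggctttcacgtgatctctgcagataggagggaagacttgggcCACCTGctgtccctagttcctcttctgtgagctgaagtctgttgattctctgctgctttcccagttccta
Ccr9, chr9:123766961-123767260, plus strand: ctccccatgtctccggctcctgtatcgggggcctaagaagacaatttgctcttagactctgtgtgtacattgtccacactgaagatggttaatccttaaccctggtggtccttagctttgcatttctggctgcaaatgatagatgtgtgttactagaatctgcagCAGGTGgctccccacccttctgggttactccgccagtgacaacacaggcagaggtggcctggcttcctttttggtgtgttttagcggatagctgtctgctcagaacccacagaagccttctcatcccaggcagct
Klk1, chr7:44225110-44225409, plus strand: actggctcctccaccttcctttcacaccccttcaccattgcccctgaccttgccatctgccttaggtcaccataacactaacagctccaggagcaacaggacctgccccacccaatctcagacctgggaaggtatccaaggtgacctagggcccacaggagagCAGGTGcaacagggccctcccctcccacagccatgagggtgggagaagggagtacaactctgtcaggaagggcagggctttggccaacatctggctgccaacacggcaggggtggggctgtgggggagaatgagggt
The letters begin 20, 85 and 87 bases before the start site of these windows for Siglech, Ccr9 and Klk1. The Siglech start site lies 30 bases inside the gene's span given above, and those of Ccr9 and Klk1 lie at the gene's first base. The gate and identity lists hold 40 genes, of which 31 matched the promoter table, with 40 promoters. CAGGTG was in 12 of these 40 promoters (30%) and in 20.2% of all 32851 promoters of the same length. CAGCTG was in 7 (17.5%, against 16.3%), and the Ets letters GAGGAAGT in 4 (10%, against 3.20%). A match is a description of letters in a window and shows no binding.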

How the data were processed

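Transcripts, antibody tags and hashtags of 1 capture were deposited as unnormalized UMI counts, per the file headers. Cell Ranger 3.1, Seurat 3.1.1 and mm10 are named, per the submitters' processing notes, and the annotation is not stated. The matrix holds called barcodes. The members and gene lists were chosen with earlier results of these data known. Counts were summed per cell group and scaled to CPM, and ratios were given exact conditional binomial 95% intervals (python 3.11.15, scipy 1.17.1). A pool at 0 was set to 3 counts. Genes compared had a mean CPM of at least 20. Hashtags were called with HTODemux (Seurat 5.3.0, R 4.3.3, quantile 0.99), and no doublet caller was run. The naming rule took the gate genes, list genes with the highest level and the largest and smallest ratios, the extreme ratios outside the lists, every tag and the 10 most variable genes. Other list genes, Vsir and Cd274 among them, were named after their values were seen. The ratio script was tested on simulated data. Promoters came from RefSeq tables of GRCm38.p6. UMI limits, marker number, doublets, scaling, low-count filter and left-out cells were varied. Some items are not reported here.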

Additional observations from a re-analysis of the deposited data

Results flagged for a closer look

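The human hashtag features of the deposited matrix, which enter no comparison, had 87 counts in the 50 members, above the 3 counts that a count of 0 allows. H-HTO-1, H-HTO-4 and H-HTO-2 gave 32, 28 and 23 of these counts, a mean of 0.64, 0.56 and 0.46 per cell, against 0.255, 1.06 and 0.441 in the other cells.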

How the results depend on the processing

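No paired analysis was run, because the rule for the members pools all hashtags, and comparisons of cells within a brain were not run. With a mean CPM of at least 5, 895 genes were higher and 1638 lower than in other cells, 1497 and 826 against conventional dendritic cells, and 1185 and 1694 against microglia. With no filter these counts were 1611 and 1995, 2559 and 1017, and 2140 and 1972, because more genes were compared. Leaving out members with a UMI of Cd3e, C1qa, C1qb, Ms4a7 or Krt8 left 32 cells, with 1033 genes lower than in other cells and 676 lower than in conventional dendritic cells. Leaving out the hashtag with most members left 26 cells. Leaving out the 9 cells with 10 or more Lyz2 UMIs, an alternative chosen after seeing the data, gave 651 genes lower than in conventional dendritic cells. With at most 20000 UMIs the median log2 ratio of interferon-stimulated genes over other cells was -1.003. Without thinning, Bst2, Tcf4 and Irf8 were in 100% of members and Lag3 in 64%. By tags per cell the Siglec-H log2 ratio was 1.58 in place of 0.99. The cause was not tested for these other changes.

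Of the values for single genes and lists, 0 that were at least 2-fold reversed. Cd274 was past the 2-fold limit under 5 settings (log2 ratio -1.05 to -1.77), Cxcr3 under 4 (1.08 to 1.54), Vsir under 2 (-1.30 and -1.37) and Tlr9 with singlets alone (1.12). Without the largest hashtag H2-Ab1 (-0.57) and Cxcl10 (-0.99) were within it, as was H2-Ab1 by mean of per-cell CPM (-0.96). The median of conventional dendritic cell factors against those cells was past it under 5 settings (-1.14 to -1.65). The sign changed in 8 values that were within 2-fold under both settings. Centring moved the comparison with conventional dendritic cells by 0.13 on the log2 scale. A gene at 0 in the members may lie at up to 5.76 CPM. The members come from 1 capture of unequal hashtags, and intervals cover counting error only.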
